A study of Mus musculus with 6 samples.

Results

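The proteins that coat lipid droplets were examined in mouse skin through 9 genes: the 5 perilipins Plin1, Plin2, Plin3, Plin4 and Plin5, the 3 CIDE genes Cidea, Cideb and Cidec, and Hilpda. They were taken by gene symbol from a table of 21959 genes, all 9 were found, and all 9 were among the 14875 genes that passed the filter on low counts and were tested. The libraries came from full-thickness dorsal skin of wildtype male C57BL/6 mice shaved in telogen, the resting phase of the hair cycle, at 7 weeks of age. For 7 days, 3 mice received topical vehicle (dipropylene glycol in distilled water) and 3 mice received topical 3% rebamipide, a quinolinone drug used as a gastric mucosal protectant, with 1 poly-A RNA library per replicate. Full-thickness skin holds epidermis, hair follicles, sebaceous glands, dermal fat, vessels and underlying muscle, so fewer cells of a type and less RNA per cell cannot be told apart in these values.

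Lipid droplets store triglycerides and sterol esters behind a phospholipid monolayer, and the proteins on that surface set how the stored fat is reached. Perilipins guard the surface against lipases, and PLIN1 in particular releases it under hormonal stimulation. PLIN1 and PLIN4 are coats of adipocytes, PLIN2 coats droplets of nearly all cells, sebocytes included, PLIN3 moves from the cytosol onto young droplets, and PLIN5 ties droplets to mitochondria in brown fat, heart and oxidative muscle. CIDE proteins sit where droplets touch and pass lipid from the smaller to the larger one. CIDEC drives the single large droplet of the white adipocyte, CIDEA is abundant in brown adipocytes and in sebaceous glands, and CIDEB is best known from hepatocytes. HILPDA, a small droplet protein induced by hypoxia and fatty acids, binds and inhibits the triglyceride lipase ATGL.

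Because 8 of these genes moved in the same direction, the DNA just upstream of their starts is shown for 4 of them, chosen because a searched motif lay in the stretch that could be printed. The sequences are from RefSeq on GRCm38.p6, read 5′ to 3′ on the strand of the gene, which is the minus strand for all 4, and they stop short of annotated exons. Capitals mark AGGTCA, the repeat unit of nuclear receptor elements such as those bound by PPARγ, on either strand in Plin5 and Plin2, and TTGCNNAA, a C/EBP type motif, in Cidec and Plin1.
Plin5, chr17:56117607-56117798: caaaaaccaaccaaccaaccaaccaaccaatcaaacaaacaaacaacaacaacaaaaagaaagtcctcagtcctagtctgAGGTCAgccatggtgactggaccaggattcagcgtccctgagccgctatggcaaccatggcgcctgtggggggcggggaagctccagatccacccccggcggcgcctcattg
Plin2, chr4:86670218-86670309: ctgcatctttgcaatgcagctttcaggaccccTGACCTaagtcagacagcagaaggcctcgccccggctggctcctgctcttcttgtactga
Cidec, chr6:113434765-113435014: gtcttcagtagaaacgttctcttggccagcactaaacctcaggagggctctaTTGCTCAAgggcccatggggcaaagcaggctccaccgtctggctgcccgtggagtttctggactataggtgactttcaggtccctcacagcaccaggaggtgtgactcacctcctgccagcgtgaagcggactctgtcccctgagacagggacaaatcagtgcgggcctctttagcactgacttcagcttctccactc
Plin1, chr7:79732905-79733026: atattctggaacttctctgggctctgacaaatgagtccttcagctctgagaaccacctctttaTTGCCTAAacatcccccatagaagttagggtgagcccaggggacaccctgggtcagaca
The printed match began 170 bases upstream of the start in Plin5, 218 in Plin2, where it reads on the opposite strand, 198 in Cidec and 187 in Plin1. Cidec had another annotated start, whose window (113435761 to 113436010) held none of the searched motifs and is not shown. The genes searched were 8 of the 9, Cidea left out and Hilpda included, with 11 windows. Within 250 upstream bases and on both strands, AGGTCA was found in 2 of the 11 windows and in 14.0% of 32851 promoter windows of the mouse. TTGCNNAA was found in 2 of 11 windows, of which that of Plin1 held a further match 58 bases upstream, outside the printed stretch, and in 9.56% of all windows. ACGTG, the core of the element bound by hypoxia-inducible factors, was found in 1 of 11 windows, of Hilpda, and in 16.6% of all windows. A match describes the letters of the window and not binding. The searched motifs share no letters at the printed positions.

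The libraries held 38676018 to 39915276 counts in the vehicle group and 32709801 to 34706852 in the rebamipide group. Counts were scaled with edgeR's TMM factors and are given as normalized CPM (counts scaled to the effective library size). The median log2 fold change of all genes tested was −0.17 after this scaling and −0.78 with scaling by total counts alone. Reads on mitochondrially encoded genes were 2.59% to 5.36% of a vehicle library and 13.3% to 22.0% of a rebamipide library. The third rebamipide library stood apart, with the 6 keratinocyte markers summing to 3.36 CPM (Krt14 and Krt15 at 0 counts), against 1125 and 1916 in the other two and 2611 to 6689 in vehicle. Markers of fast muscle summed to 6009 to 30996 CPM in vehicle and to 39833, 8417 and 306 CPM in the rebamipide libraries, so this part of the tissue varied within both groups.

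With edgeR's quasi-likelihood test and Benjamini-Hochberg adjustment over all genes tested, 8 of the 9 genes were higher in rebamipide-treated skin at an adjusted p under 0.05, against 14.1% of all genes, and 0 were lower, against 6.51% of all genes. The whole table held 2093 genes higher and 968 lower, and 1257 higher and 3744 lower when scaled by total counts alone, under which the same 8 genes were called with smaller log2 fold changes, 1.98 for Plin1, 1.29 for Plin2, 0.80 for Plin3, 1.41 for Plin4, 6.09 for Plin5, 5.58 for Cidea, 3.17 for Cideb and 1.77 for Cidec, and Hilpda had −1.07 and was not called. DESeq2 called 8 higher and 0 lower as well, against 18.3% and 17% of all genes. At an unadjusted p under 0.05, 8 were higher and 0 lower with edgeR, where 5901 of all 14875 genes passed in either direction. The median log2 fold change of the 9 genes was 2.40. All 3 rebamipide libraries lay above all 3 vehicle libraries for 8 genes, against 24.5% of all genes, 0 genes had all rebamipide libraries below all vehicle libraries, against 24% of all genes, and Hilpda overlapped. The calls depended on single libraries: in edgeR, leaving out vehicle replicate 2 or rebamipide replicate 2 left 0 of the 9 genes called (adjusted p from 0.0747 to 0.131 and from 0.0573 to 0.115 over the 8 genes) and leaving out rebamipide replicate 3 left 4 (Plin1, Plin3, Plin5 and Cidea). Leaving out rebamipide replicate 1 left 8 called, and leaving out vehicle replicate 1 or 3 left 7. Without vehicle replicate 2 and without rebamipide replicate 2, the log2 fold changes were 6.72 and 6.69 for Plin5 and 6.13 and 6.15 for Cidea. Other omissions moved them more, as for Plin1, at 2.23 without vehicle replicate 1 and 3.16 without vehicle replicate 3 in edgeR. The whole table had 0, 1 and 1012 genes called higher without vehicle replicate 2, rebamipide replicate 2 and rebamipide replicate 3. DESeq2 with any single library left out kept all 8 calls.

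**Figure D1:**
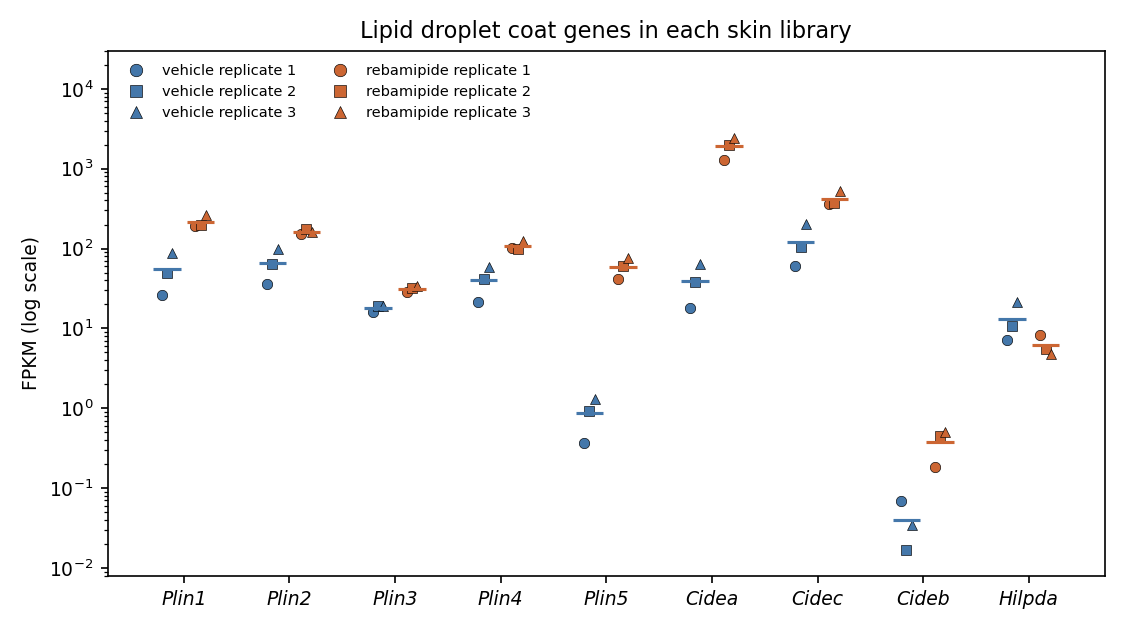
FPKM of the 9 genes in each library on a log scale. Blue symbols are the 3 vehicle libraries, orange symbols the 3 rebamipide libraries, symbol shapes give the replicate and bars the group mean. Plin5 and Cidea show the widest separation, Plin3 the narrowest among the genes called, and the Hilpda groups overlap.

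Plin1, the main adipocyte coat and the platform that holds the lipase co-activator ABHD5 until stimulation, was listed at position 79369966 to 79382651 of chromosome 7 on the minus strand (positions as deposited; the submitters' processing notes name GRCm39). It had 4794, 9236 and 15812 counts in the vehicle libraries and 28784, 31483 and 42442 in the rebamipide libraries. Normalized, these were 96.0, 187 and 338 CPM against 947, 1226 and 1619 CPM. The lowest rebamipide value was above the highest vehicle value, although the vehicle libraries differed among themselves by 3.52 times. The means were 207 ± 122 and 1264 ± 337 CPM (SD, n = 3 each), a log2 fold change of 2.61 ± 0.52 (SE; edgeR, adjusted p = 0.0226).

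Plin4, the largest perilipin and an adipocyte protein that covers small new droplets, lies in the Plin3, Plin4 and Plin5 cluster of chromosome 17 (56407591 to 56416803, minus strand). Its values were 105, 217 and 308 CPM in vehicle and 700, 831 and 1042 CPM in rebamipide-treated skin, with no overlap. The log2 fold change was 2.03 ± 0.44 (SE; edgeR, adjusted p = 0.0272), and the call was lost without rebamipide replicate 3 (edgeR, adjusted p = 0.0631). It shares 17 bases with Hdgfl2 on the opposite strand.

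Cidec, which enlarges the droplet of white adipocytes (chromosome 6, 113401595 to 113412721, minus strand), followed the same order of libraries. Vehicle skin had 87.6, 158 and 308 CPM and rebamipide-treated skin 720, 929 and 1276 CPM. Every treated library exceeded every control library. The log2 fold change was 2.40 ± 0.53 (SE; edgeR, adjusted p = 0.0280), with an adjusted p of 0.0521 without vehicle replicate 1 and 0.0614 without rebamipide replicate 3 in edgeR. Without vehicle replicate 3 the log2 fold change was 2.99 in edgeR and 3.02 in DESeq2.

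For Plin1, Plin4 and Cidec, coats of adipocytes, the vehicle libraries spread over 2.92 to 3.52 times, with the third highest and the first lowest. Adipoq, a hormone gene of adipocytes, showed the same order of vehicle libraries at 187, 286 and 543 CPM and rose to 1075, 1367 and 1772 CPM (log2 fold change 2.05; edgeR, adjusted p = 0.0308). The 6 shared adipocyte markers summed to 1689 to 3705 CPM in vehicle and 9033 to 21437 CPM in rebamipide-treated skin, with 6 of 6 above (24.5% of all genes), 5 of 6 called higher (14.1% of all genes) and 0 at 0 counts in any library. The 5 white adipocyte markers summed to 513 to 2156 and 1002 to 2107 CPM, which overlap. Of these, 1 passed the test (Nnat, log2 fold change 1.53; edgeR, adjusted p = 0.0398), and Lep, Retn, Npr3 and Cfd lay between −0.53 and 0.72. The part of these markers in the result was not tested.

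Plin2, the coat of most non-adipocyte cells and of sebocytes (chromosome 4, 86566623 to 86588297, minus strand), had 4905, 9023 and 13442 counts in vehicle and 17416, 21150 and 19605 in rebamipide-treated skin. Scaled, these were 98.2, 183 and 287 CPM against 573, 824 and 748 CPM. The groups did not overlap and the rebamipide libraries differed among themselves by 1.44 times. The log2 fold change was 1.92 ± 0.43 (SE; edgeR, adjusted p = 0.0300), with an adjusted p of 0.0658 in edgeR without rebamipide replicate 3. The 8 sebaceous gland markers summed to 542 to 1544 CPM in vehicle and to 460, 322 and 27.3 CPM in the rebamipide libraries, and 5 of the 8 lay below without overlap, against 24% of all genes. In the third of these Awat1 and Dgat2l6 were at 0 counts, and Plin2 was at 748 CPM. Of those markers 1 of 8 was lower in the test (12.5%, against 6.51% of all genes), Mc5r, a melanocortin receptor of sebocytes (log2 fold change −2.87; edgeR, adjusted p = 0.0109). The part of sebocytes in the Plin2 values was not tested.

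Plin3, the perilipin that exchanges between cytosol and droplet in most cells (chromosome 17, 56584476 to 56599873, minus strand), had the smallest change of the genes called. Its values were 47.2, 59.2 and 59.6 CPM in vehicle and 117, 161 and 169 CPM in rebamipide-treated skin. The vehicle libraries were within 1.26 times of each other, the tightest of the 9 genes. The log2 fold change of 1.43 ± 0.22 (SE) had an adjusted p of 0.0125 in edgeR.

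Plin5, the perilipin of oxidative tissue (chromosome 17, 56418601 to 56424596, minus strand), had 30, 77 and 106 counts in the vehicle libraries and 2798, 4318 and 5546 in the rebamipide libraries. Normalized, these were 0.601, 1.56 and 2.27 CPM against 92.1, 168 and 212 CPM. Mean CPM was 107-fold higher, and the log2 fold change was 6.73 ± 0.66 (SE; edgeR, adjusted p = 0.00939). Counting Plin5, 14 of the 14875 genes tested had a fitted log2 fold change at least this large.

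Cidea, the CIDE gene of brown fat and sebaceous glands (chromosome 18, 67476674 to 67500855, plus strand), had 779, 1673 and 2728 counts in vehicle and 47135, 76597 and 92845 in rebamipide-treated skin. In CPM it went from 15.6, 34.0 and 58.3 to 1551, 2984 and 3541. The lowest treated library was far above the highest control library. Mean CPM was 74.9-fold higher, with a log2 fold change of 6.23 ± 0.70 (SE; edgeR, adjusted p = 0.00939), and 20 genes, Cidea included, had a fitted log2 fold change this large. Vehicle skin thus held Cidea reads in each library while Ucp1, the uncoupling protein that defines brown adipocytes, had 0 counts in all 3.

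Plin5 and Cidea moved together with markers of brown adipocytes. The 8 markers summed to 27.1 to 66.8 CPM in vehicle and 3093 to 9455 CPM in rebamipide-treated skin, with Ucp1 at 2667 to 8587 CPM. Ucp1, Otop1, Cox7a1, Cpt1b and Dio2 were called higher in edgeR, 5 of 8 against 14.1% of all genes. Zic1, Lhx8 and Eva1a were not, with mean CPM of 12.1 and 12.8 for Zic1, a transcription factor gene of classical brown fat. PLIN5 is also a muscle protein, and 4 of 6 slow muscle markers were called higher in edgeR, against the same 14.1%, with the list summing to 2.07 to 13.5 CPM in vehicle and to 290, 129 and 7.02 CPM in the rebamipide libraries. In the third rebamipide library, where slow and fast muscle markers summed to 7.02 and 306 CPM, Plin5 was at its highest, 212 CPM. The same library held 27.3 CPM of sebaceous markers and the highest Cidea value, 3541 CPM. The part of brown fat, muscle and sebaceous tissue in these values was not tested. Without that library the log2 fold changes were 6.47 and 5.99, both called in edgeR.

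Cideb, the hepatocyte member of the CIDE family (chromosome 14, 55991507 to 55995915, minus strand), was close to the limit of counting. It had 4, 1 and 2 counts in the vehicle libraries and 9, 23 and 26 in the rebamipide libraries. The summed counts, 7 and 58, correspond to a ratio of 14.7 after scaling (95% exact interval 6.70 to 38.2, counting error only). edgeR gave a log2 fold change of 3.83 ± 0.77 (SE, adjusted p = 0.0230). That call was lost with the replicate number as a block (edgeR, adjusted p = 0.0815), without vehicle replicate 3 (0.0584) and without rebamipide replicate 3 (0.0621). DESeq2 without vehicle replicate 1 gave a log2 fold change of 4.53. Cideb shares 1451 bases with Nop9 on the opposite strand, which had 745 to 1218 counts in vehicle and 359 to 590 in rebamipide-treated skin. How strand was treated in counting is not given in the sources used here, so reads of the overlap cannot be assigned to either gene with certainty.

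Hilpda, the droplet inhibitor of ATGL (chromosome 6, 29272487 to 29275445, plus strand), did not pass the test. It had 305, 466 and 902 counts in vehicle and 296, 209 and 183 counts in rebamipide-treated skin. In CPM these were 6.11, 9.46 and 19.3 against 9.74, 8.14 and 6.98, so the treated libraries lay inside the range of the controls. The log2 fold change was −0.49 ± 0.46 (SE; edgeR, adjusted p = 0.453) and turned to 0.10 without vehicle replicate 3. Of the 10 hypoxia response genes examined beside it, Vegfa (log2 fold change 2.21) and Pdk1 (1.35) were higher and Ero1a (−1.40) was lower in edgeR, and the other 7 were not called. These are 20% higher and 10% lower, against 14.1% and 6.51% of all genes.

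Levels of different genes were compared as FPKM, which divide counts by gene length. In vehicle skin the order of mean FPKM was Cidec (122 ± 71.9, SD, n = 3), Plin2 (66.4 ± 31.7), Plin1 (54.7 ± 31.1), Plin4 (40.7 ± 18.7), Cidea (39.6 ± 22.8), Plin3 (18.1 ± 1.88), Hilpda (12.9 ± 7.32), Plin5 (0.868 ± 0.475) and Cideb (0.0401 ± 0.0264). Ranges of neighbours overlapped from Cidec down to Hilpda, while Hilpda, Plin5 and Cideb were separated from each other. In rebamipide-treated skin the order was Cidea (1897 ± 560), Cidec (418 ± 88.1), Plin1 (216 ± 40.5), Plin2 (163 ± 11.9), Plin4 (108 ± 14.0), Plin5 (59.2 ± 17.8), Plin3 (31.4 ± 2.56), Hilpda (6.17 ± 1.80) and Cideb (0.379 ± 0.171). The ranges of all neighbours in that order were separate. Cidea moved ahead of Cidec, Plin2, Plin1 and Plin4, and Plin5 passed Plin3 and Hilpda.

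The make-up of the CIDE pool turned over between the groups. Cidea made up 22.8%, 26.4% and 23.9% of the summed CIDE FPKM in the vehicle libraries and 78.2%, 84.2% and 82.2% in the rebamipide libraries, and Cidec nearly all of the rest. The FPKM ratio of Cidea to Cidec was 0.296, 0.358 and 0.315 in vehicle and 3.59, 5.34 and 4.62 in rebamipide-treated skin. Within each group this ratio varied little although the summed CIDE FPKM ran from 78.2 to 264 in vehicle. The log2 ratio rose from −1.63 ± 0.14 to 2.16 ± 0.29 (SD, n = 3 each), a difference of 3.79 that does not depend on scaling between libraries. Its two-sided exact permutation p was 0.1, the smallest that 3 libraries against 3 can give, so this test could not pass 0.05.

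**Figure D2:**
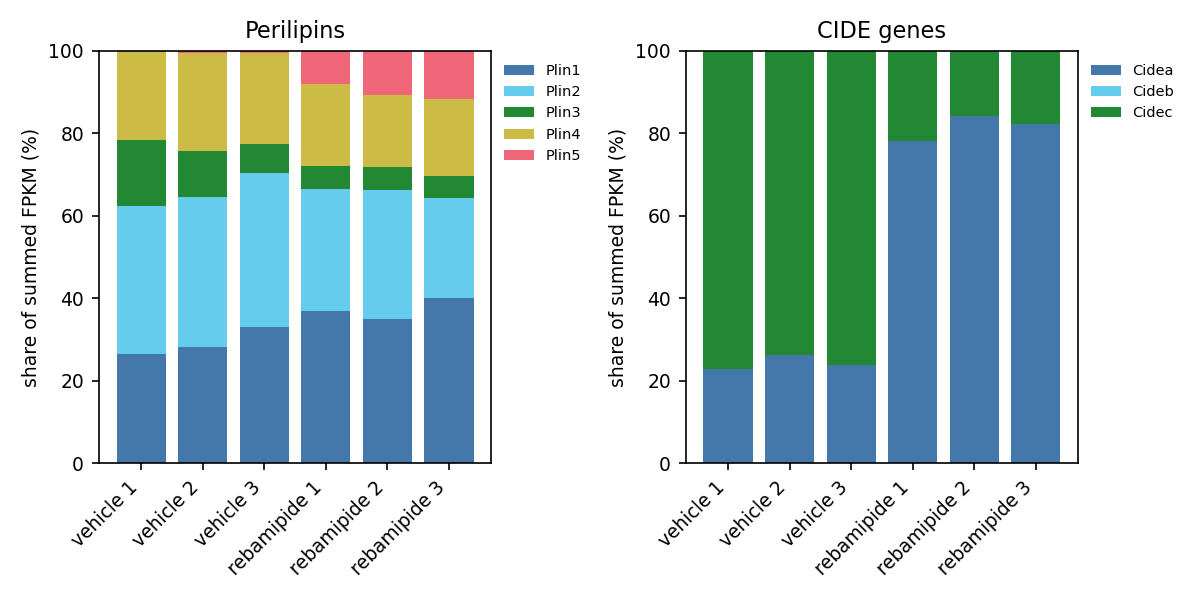
Share of each gene in the summed FPKM of the 5 perilipins (left) and of the 3 CIDE genes (right), in percent, for each library. The Plin5 band is under 1% in the vehicle bars and 7.99% to 11.6% in the rebamipide bars, and Cidea replaces Cidec as the major CIDE gene. Cideb is too small to see.

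In percentage points of summed FPKM, the shares of the perilipins changed less than those of the CIDE genes, a comparison that was not tested. Plin1 was 26.5%, 28.2% and 33.1% of summed perilipin FPKM in vehicle and 36.9%, 35.1% and 40.0% in rebamipide-treated skin, and Plin2 went from 35.9%, 36.5% and 37.2% to 29.6%, 31.2% and 24.4%. By FPKM, Plin2 was thus ahead of Plin1 in each vehicle library and behind it in each rebamipide library. By share of counts Plin1 was already ahead in vehicle replicates 2 (28.9% against 28.3%) and 3 (34.0% against 28.9%). Plin5 accounted for 0.37%, 0.52% and 0.49% in vehicle and for 7.99%, 10.7% and 11.6% in rebamipide-treated skin, a difference of 9.65 percentage points, or 4.66 when shares were taken from counts without dividing by length. Plin3 had 7.16% to 16.0% in vehicle and 5.12% to 5.66% under treatment. Plin4 had 21.3% to 23.9% in vehicle and 17.4% to 19.95% under treatment, without overlap.

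Relative to Plin1 in the same library, Plin5 went up and the other 3 perilipins went down. The log2 FPKM ratio of Plin5 to Plin1 was −5.99 ± 0.22 in vehicle and −1.90 ± 0.27 in rebamipide-treated skin (SD, n = 3 each), a difference of 4.09. Plin2 over Plin1 differed by −0.73, from 0.33 ± 0.14 to −0.40 ± 0.28, Plin4 over Plin1 by −0.61, from −0.38 ± 0.18 to −0.99 ± 0.10, and Plin3 over Plin1 by −1.34, from −1.43 ± 0.74 to −2.77 ± 0.17. The groups did not overlap for any of these ratios. Each gave a two-sided exact permutation p of 0.1, also after adjustment over the 5 ratios tested.

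Since Adipoq rose as well, each gene was also set against Adipoq within the library, a comparison chosen after the data were seen and given without a test. Plin4 and Plin2 then lay level between the groups, with mean log2 ratios that differed by −0.02 and −0.13 and overlapped. Plin1 was higher by 0.59 and Cidec by 0.39, without overlap. Plin5 was higher by 4.69 and Cidea by 4.18. Plin3 differed by −0.74 and Cideb by 1.80, both with overlap. Pparg and Fabp4, adipocyte markers that also rose, were themselves higher against Adipoq by 0.65 and 1.12, without overlap. The differences against Adipoq thus depend on the adipocyte gene used as the reference. Hilpda kept a nearly fixed ratio to Adipoq in vehicle skin, −4.61, −4.59 and −4.49, and lay lower in each rebamipide library, at −6.46, −7.07 and −7.66, a difference of −2.50. The rise of Adipoq itself, 2.05 on the log2 scale, enters this difference. In CPM the Hilpda groups overlapped and the gene was not called.

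**Figure D3:**
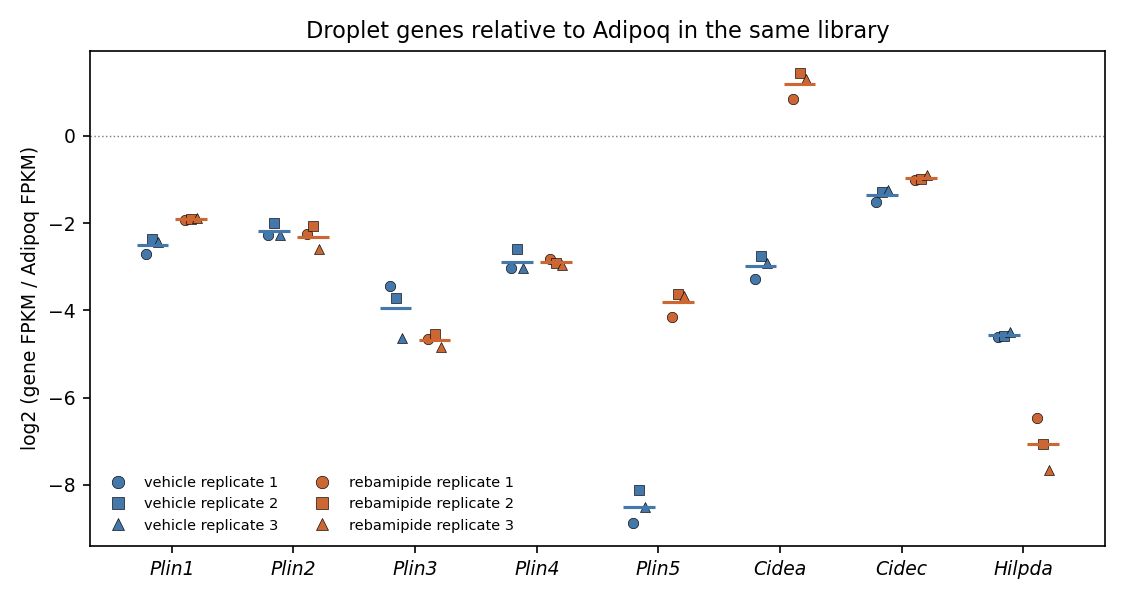
Log2 ratio of each gene's FPKM to that of Adipoq in the same library. Blue symbols are vehicle and orange symbols rebamipide libraries, with bars at the group means, and Cideb is left out for its low counts. Plin2 and Plin4 are level between the groups, Plin5 and Cidea lie more than 4 log2 units higher in rebamipide-treated skin, and Hilpda lies lower.

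Over the 6 libraries, all of these genes but Hilpda were alike in log2 CPM, with Pearson's r from 0.84 to 0.999 between them, given here as a description, since libraries of the same group share treatment and scaling. It was 0.999 for Plin1 with Cidec, 0.998 for Plin1 with Plin4, 0.999 for Plin5 with Cidea and 0.991 for Plin3 with Plin5. Hilpda had r between −0.43 and 0.04 with the other 8 genes. Among 13378 genes with a mean of at least 50 counts, the one most like Cidec was Adipoq, followed by Mrpl14 (r = 0.9995 for both). The closest to the others were Mrpl14 and Epas1 for Plin1, Kcmf1 and Kcnj8 for Plin2, L3hypdh and Eci3 for Plin3, Reep5 and Stat5a for Plin4, Gm5617 for Plin5, Eci1 and Adi1 for Cidea, and Zbtb7b and Adamts9 for Cideb. For these genes 92 to 506 genes of the table had an r of at least 0.99, so the likeness is shared widely. For Hilpda it was 1 gene, Ccr7 (r = 0.998), with Lhpp next (r = 0.989).

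Of 7 lipases and lipase cofactors tested, 5 were higher and 0 lower in edgeR (Pnpla2, Lipe, Pnpla3, G0s2 and Abhd5), against 14.1% and 6.51% of all genes, and their median was 2.49 on the log2 scale, against −0.17 for all genes. Pnpla2, which encodes ATGL and takes the first fatty acid from a triglyceride, went from 118, 190 and 334 CPM to 1974, 3472 and 4106 CPM (log2 fold change 3.89 ± 0.55, SE; edgeR, adjusted p = 0.0106). Lipe, the hormone-sensitive lipase, went from 63.6, 84.6 and 133 to 618, 797 and 921 CPM (3.05 ± 0.37; edgeR, adjusted p = 0.00957). G0s2, an inhibitor of ATGL like Hilpda, went from 13.3, 21.5 and 25.6 to 100.4, 167 and 285 CPM (3.19 ± 0.47; edgeR, adjusted p = 0.0117). Of these ATGL inhibitors G0s2 passed the test and Hilpda did not, and the difference between them was not itself tested. Mgll, the monoglyceride lipase, had a log2 fold change of 1.501 ± 0.43 and did not pass (edgeR, adjusted p = 0.0548). Pnpla5, a lipase relative of ATGL, was not called either, at −2.11 ± 1.26 (edgeR, adjusted p = 0.252), with all rebamipide libraries below all vehicle libraries.

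**Figure D4:**
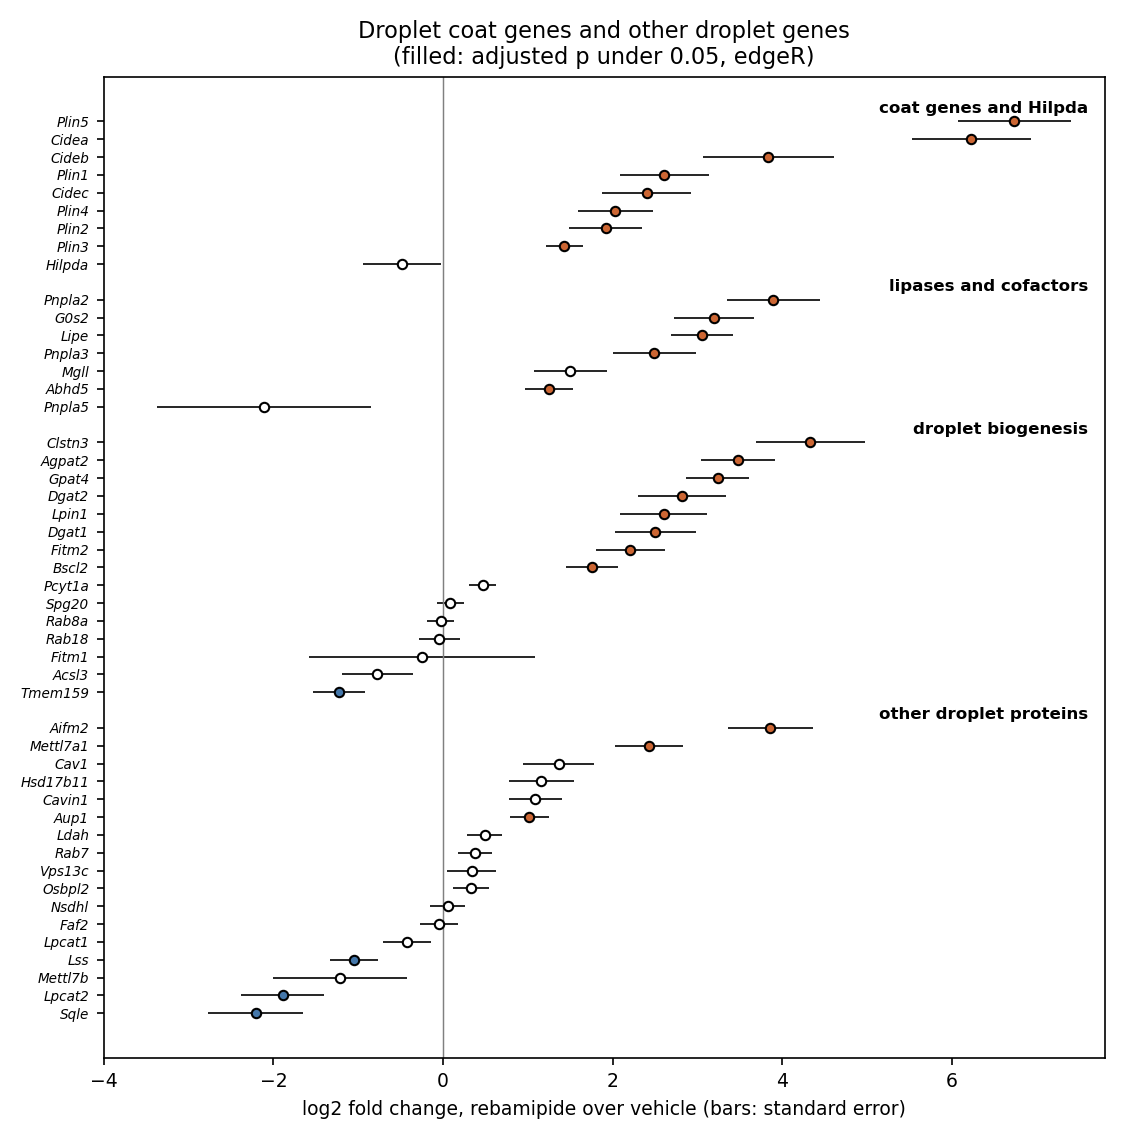
Log2 fold change of rebamipide over vehicle with its standard error for the 9 coat genes and for the 39 other droplet genes tested, by role. Filled symbols passed the test in edgeR, orange higher and blue lower. Pnpla2, Lipe, Gpat4 and Agpat2 lie among the coat genes, and Pnpla5, Tmem159, Sqle and Lss lie below 0.

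Droplet formation genes were higher in 8 and lower in 1 of 15 tested (14.1% and 6.51% over all genes), with a median of 1.75. Gpat4, an acyltransferase of the first step of triglyceride synthesis that can move onto droplets, rose from 72.8, 64.2 and 72.2 to 373, 791 and 805 CPM (log2 fold change 3.23 ± 0.37, SE; edgeR, adjusted p = 0.00939). Agpat2, the next acyltransferase and a lipodystrophy gene, had 42.4, 90.4 and 112 CPM in vehicle and 743, 990 and 987 CPM in rebamipide-treated skin (3.48 ± 0.43; edgeR, adjusted p = 0.00993). Clstn3, whose locus also encodes the brown adipocyte droplet protein CLSTN3B, had 6.25, 14.2 and 27.5 CPM in vehicle and 192, 394 and 379 CPM under treatment (4.33 ± 0.65; edgeR, adjusted p = 0.0118), and gene counts do not separate its transcripts. Dgat2, which makes triglyceride at the droplet, was the most abundant of the list per length, at 116 ± 53.2 and 527 ± 159 FPKM (SD, n = 3 each; log2 fold change 2.81; edgeR, adjusted p = 0.0186). Tmem159, which encodes the seipin partner LDAF1, fell by 1.23 on the log2 scale, from 55.4, 46.2 and 32.5 to 25.1, 15.0 and 17.0 CPM (edgeR, adjusted p = 0.0382).

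Of the other droplet proteins 3 were higher and 3 lower of 17 tested, which is 17.6% each, against 14.1% and 6.51% of all genes, and the median was 0.34. The ferroptosis suppressor gene Aifm2 (log2 fold change 3.86), Mettl7a1 (2.42) and Aup1 (1.02) were higher in edgeR. The cholesterol synthesis genes Sqle (−2.21) and Lss (−1.05) and the phospholipid enzyme gene Lpcat2 (−1.89) were lower, with adjusted p in edgeR of 0.0409, 0.0487 and 0.0419. Cav1 and Cavin1, caveola genes, had the highest mean FPKM of the list over the 6 libraries. They had log2 fold changes of 1.36 and 1.09 and did not pass (edgeR, adjusted p = 0.0638 and 0.0558). Sqle was at 147, 120 and 138 CPM in vehicle and at 49.96, 27.7 and 9.88 CPM in rebamipide-treated skin, with its lowest value in the library poorest in keratinocyte markers. In that library the keratinocyte list summed to 3.36 CPM, and the part of this in the fall was not tested. The 3 lists together held 39 tested genes, 16 higher (41.0%, against 14.1% of all genes) and 4 lower (10.3%, against 6.51%) in edgeR. As for the coats, 0 of them were higher in edgeR without vehicle replicate 2 or rebamipide replicate 2. The 4 falls went to 0 or 1 without any of the vehicle libraries or rebamipide replicates 2 or 3, and to 1 with the replicate block. DESeq2 called 20 higher and 4 lower of the 39, against 18.3% higher and 17% lower of all genes.

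The deposited table annotates 106 genes to the GO term lipid droplet, 8 of the 9 among them. Of 71 further genes outside the lists above, 58 were tested, 18 were higher (31.0%, against 14.1% of all genes) and 3 lower (5.17%, against 6.51%), and their median was 0.34 on the log2 scale. The highest-ranked rises by p were Akap1, a mitochondrial anchoring protein gene (3.64), Aqp7, the glycerol channel of adipocytes (4.74), and Dhrs3, a retinal reductase gene (1.64), with adjusted p in edgeR of 0.00939, 0.00939 and 0.0101. Among the genes that fell were Aldh3b2 (−1.72) and Acsl4 (−1.35), with adjusted p in edgeR of 0.0180 and 0.0381.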

How the data were processed

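RNA-seq was performed on 6 skin libraries, 3 from vehicle-treated and 3 from rebamipide-treated mice. The authors deposited unnormalized read counts and FPKM per gene. The deposited FPKM equal the counts divided by gene length and summed counts (largest relative deviation 5.1e-14), and depth sets the precision of both. The submitters' processing notes name fastp 0.22.0, HISAT2 2.1.0, HTSeq 0.9.1 and GRCm39. The table also holds the authors' annotation, of which symbols, positions and GO terms were used. All 12 per-sample columns matched a sample by name.

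Counts were tested in R 4.3.3 with edgeR 4.0.16 (TMM, filterByExpr, glmQLFTest), with Benjamini-Hochberg adjustment over 14875 genes and a threshold of 0.05. DESeq2 (here version 1.42.0; the study also used DESeq2), limma-voom in limma 3.58.1, other normalizations and filters, a replicate block and the omission of each library were alternatives. The tests were also run on simulated counts with the same dispersion for all genes. That setting is simpler than these data, so it does not show how the tests behave here. Log2 CPM for correlations had 0.5 CPM added. Ratios between genes were tested with exact permutation.

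Replicates differed by far more than sampling noise (chi-square divided by its degrees of freedom, 83.1 to 742.3), and p-values measure the spread between these libraries. Deviations from the group mean had r from −0.07 to −0.03 between libraries of the same replicate number and from −0.34 to 0.35 between unlike numbers. Such deviations within a small group are not independent, so this check showed no pairing by number but cannot exclude one.

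The members and lists were chosen with earlier results of these data known. Named are all 9 members, of each droplet list up to 3 called genes per direction by p and the 2 with the highest FPKM, of the GO term up to 3 per direction, the 2 genes most like each member, and markers beside a member. Some genes this rule selects are not reported here. The remaining marker lists gave summed CPM of 463 to 1043 in vehicle and 254 to 956 in rebamipide-treated skin for 6 macrophage genes (0 called) and of 203 to 471 and 968 to 1408 for 5 endothelial genes (3 called higher, against 14.1% of all genes, and 5 above without overlap, against 24.5%). RefSeq promoter windows on GRCm38.p6 were matched by symbol and used for 8 of the 9 genes (11 windows), and their coordinates were not mixed with those of the table. Other data of the study were not analysed here.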

Additional observations from a re-analysis of the deposited data

How the results depend on the processing

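Over the alternatives other than the ratio to Adipoq, 154 values of single genes kept their direction and side of the threshold, 23 lost the call and 2 turned direction. The number of the 9 genes called higher was 8 in edgeR and 0 to 8 with single libraries left out, 0 without vehicle replicate 2 or rebamipide replicate 2, where the whole table had 0 genes higher and 0 lower and 1 higher and 0 lower. Omitting single libraries gave 0 to 19 of the other droplet genes higher in edgeR and 16 to 23 in DESeq2 (16 with all libraries in edgeR), and 0 to 4 and 4 to 5 lower (4 with all libraries). With the replicate number as a block 1 other droplet gene was lower and 7 of the 9 genes were higher, the exception being Cideb, and the block changed no other call among the 9. Hilpda lay between −0.82 and 0.11 with single libraries left out and turned to 0.10 in edgeR and 0.11 in DESeq2 without vehicle replicate 3. Against Adipoq, chosen after the data were seen, Plin2 (−0.13), Plin3 (−0.74) and Plin4 (−0.020) turned direction. By counts the Plin5 share rose by 4.66 percentage points, since gene length is then not divided out. Over the whole table, DESeq2 called 2534 genes lower against 968 in edgeR, and 1523 were lower when only genes with 10 or more counts throughout were kept, under which Cideb was not tested. Why 1 library decides the calls in edgeR was not tested. Values at a few counts, as for Cideb in vehicle skin, are limited by depth, and its interval covers counting error only.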
